A study of Homo sapiens with 36 samples.

Results

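Of 11646 protein-coding genes with a promoter marked by H3K4me3 in both A549 and B2B cells, 1338 carried peaks of JunB, Jun and JunD in A549 and no Jun-family peak in B2B. These 1338 genes are called the members here. They were selected on the H3K4me3 and Jun-family peak lists of both lines, by asking for a peak within 1 kb of one annotated start site, and each gene was counted once. H3K4me3, the histone mark of active promoters, had a peak within 1 kb in both lines at 59.1% of all 19689 protein-coding genes, and the members made up 11.5% of those common promoters. Both shares, and the absence of the Jun family in B2B, follow from the way the members were chosen and are not results.

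AP-1 is a dimer of bZIP proteins that pairs a Jun-family protein (JunB, Jun or JunD) with a Fos-family or related partner, or with another Jun-family protein. It binds the 7-base element TGACTCA, and it is best known for acting at distal enhancers downstream of MAP kinase and stress signalling. Related dimers with ATF or CREB proteins prefer the 8-base element TGACGTCA, the cAMP response element (CRE), which is frequent in promoters.

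A549 is a lung adenocarcinoma line and B2B (BEAS-2B) is an immortalised, non-cancerous line of bronchial epithelium. The cells of both groups were untreated as far as the labels state, and each group is a single cell line. The labels list 36 samples in 18 groups of 2 replicates, input chromatin included, and the authors merged the replicates before peaks were called. Each of the 16 lists is therefore a single pool. No replicate error could be computed, nothing was tested over samples, the number of reads behind each list is unknown, and the 95% intervals below cover counting error over genes only. Genes that share a promoter share their peaks, so these intervals are too narrow by an unknown amount.

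To show what lies under the Jun summits of the members, the sequence around the strongest A549 Jun summit is printed for members with the highest summed fold enrichment of JunB, Jun and JunD. Coordinates are hg38, the sequence follows the strand of the gene, and AP-1 and CRE elements on either strand are in capitals. Where the window of 101 bases touched an annotated exon, 29 bases are shown, centred on the element, or on the summit where no element was found. The bases shown for GPAT3 begin just downstream of its summit at chr4:83536188. The first set holds the 4 strongest members with the AP-1 element within 50 bp of the summit, at chr4:83536197-83536225 (plus strand), chr16:4614898-4614926 (minus), chr17:51121906-51122006 (minus) and chr11:65899353-65899453 (minus).
GPAT3: gagggcctccgTGAGTCAtctgctgagtt
UBALD1: gcgaggcgcggTGAGTCAgagccgcacag
SPAG9: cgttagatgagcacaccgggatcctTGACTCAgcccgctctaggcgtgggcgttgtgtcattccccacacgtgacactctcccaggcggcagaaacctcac
FOSL1: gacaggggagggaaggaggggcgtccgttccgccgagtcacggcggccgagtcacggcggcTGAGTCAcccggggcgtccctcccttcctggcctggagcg

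The second set holds the 4 strongest members without the AP-1 element at the Jun summit, at chr10:99621360-99621388 (minus strand), chr7:152025531-152025631 (plus), chr1:33256947-33257047 (plus) and chr1:28259213-28259313 (plus). GALNT11 has a CRE there instead, as does ESYT2 at chr7:158829618-158829646 (minus), which is printed with them.
SLC25A28: ctgtgaatcatcccgcccatttcgacatc
GALNT11: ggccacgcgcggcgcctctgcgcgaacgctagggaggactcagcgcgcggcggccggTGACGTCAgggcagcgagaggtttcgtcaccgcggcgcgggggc
ZNF362: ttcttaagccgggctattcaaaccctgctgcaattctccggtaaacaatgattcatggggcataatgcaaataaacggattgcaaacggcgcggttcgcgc
SESN2: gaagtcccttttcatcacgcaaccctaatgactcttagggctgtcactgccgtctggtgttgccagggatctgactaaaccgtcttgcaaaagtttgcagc
ESYT2: gccccgcgcgaTGACGTCAgtatccaccc

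The Jun-family peaks that selected the members spanned a wide range of strength. Fold enrichment, the ratio of the read pileup at a summit to the local background of the peak caller, was measured at each of the 1338 members. Its median was 6.19 in the JunB list (range 2.88 to 46.7), 9.18 in the Jun list (3.70 to 61.3) and 5.28 in the JunD list (2.75 to 13.9). Within their own A549 lists these peaks lay at median percentiles of 40.4, 49.3 and 42.6, so the typical member peak was of ordinary strength. The 19 common promoters with all 3 proteins in both lines had A549 medians of 20.7 for JunB and 35.3 for Jun, and their JunD median was 7.35.

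GPAT3, an acyltransferase of glycerolipid synthesis, had the highest summed fold enrichment. Its A549 peaks reached 46.7 for JunB, 61.3 for Jun and 13.03 for JunD, with the Jun summit 274 bp downstream of the start site. SLC25A28, a mitochondrial iron carrier, followed with 22.98, 57.0 and 10.1. UBALD1 had 25.5, 44.4 and 10.4. GALNT11, an enzyme that starts O-linked glycosylation, had 17.01, 47.6 and 13.9, and its JunD peak was the strongest of all members. SPAG9, a scaffold protein of JNK signalling, had 20.01, 50.6 and 7.88.

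The remaining genes among the 10 strongest were ZNF362, FOSL1, ARRDC4, SESN2 and ESYT2. FOSL1 encodes the Fos-family protein Fra-1, a partner of the Jun proteins, and its A549 Jun peak reached 43.5, beside 22.4 in the JunB list and 6.84 in the JunD list. SESN2, a stress-induced inhibitor of mTORC1 signalling, had 55.0 in the Jun list, 8.70 in the JunB list and 7.17 in the JunD list. Each lay above the upper quartile of members in its own list (13.7, 8.14 and 6.17 in that order). ESYT2, a tether between the endoplasmic reticulum and the plasma membrane, had its Jun summit 5 bp from the start site. The lowest sums belonged to AHCY, at 10.9, and to MAF1 and SHARPIN, which share 1 set of peaks with a sum of 10.7.

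Some members shared their peaks. The 1338 genes rested on 1155 distinct Jun peaks, and 356 genes shared theirs with at least 1 other member, with no such count for other common promoters. A coding start site on the opposite strand lay within 1 kb upstream at 20.6% of members (18.5 to 22.9%) and at 18.8% of the other common promoters, a difference of 1.83 points with an interval of -0.39 to 4.20 that includes 0.

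The exclusion in B2B turned almost wholly on Jun. Of all common promoters, 1257 had a Jun peak in B2B, against 128 with JunB and 41 with JunD. Another 523 common promoters had all 3 proteins in A549 and were left out because of a Jun-family peak in B2B, and at 449 of them that peak was Jun alone. The nearest B2B Jun-family peak of a member was a Jun peak in 1313 of 1338 cases and lay at a median distance of 16522 bp. It lay within 3 kb at 169 members and beyond 50 kb at 278. Just inside the limit were WRAP53, HBP1 and MROH8, with a B2B peak at 1001, 1002 and 1007 bp, and just outside were BCL3 at 1000 bp and IL6R and VEZF1 at 994 bp. The opposite pattern, all 3 proteins in B2B and none in A549, was found at 1 common promoter, that of MCC.

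The lengths of the lists bear on these counts. The JunB lists held 28068 peaks in A549 and 8563 in B2B, the Jun lists 35602 and 45047, and the JunD lists 9639 and 8597. With each pair of lists cut to equal length by p-value, 250 genes met the rule, of which 230 were among the 1338.

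To ask where AP-1 sat on these promoters, the position of the strongest A549 Jun summit was measured against the start site. The summit lay within 250 bp of the start site at 884 members (66.1%), with a median distance of 126.5 bp, and it lay upstream at 800 members (59.8%). All 3 summits fell within 100 bp of each other at 642 members. Members with the AP-1 element at the Jun summit had that summit farther out, at a median distance of 350.5 bp, against 116 bp for members without it.

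**Figure D1:**
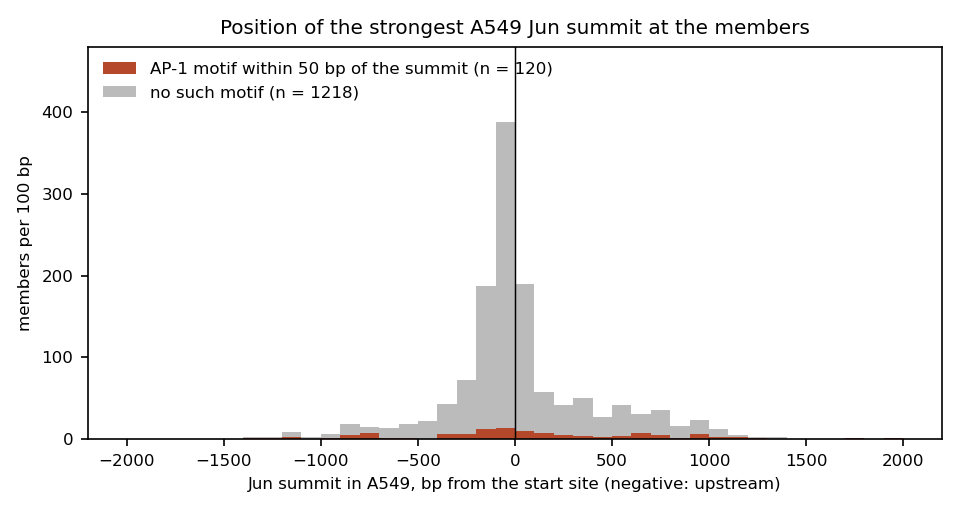
Histogram of the position of the strongest A549 Jun summit relative to the start site, in bp, with the 120 members that carry the AP-1 element within 50 bp of the summit in red and the 1218 others in grey. Most summits fall within 250 bp of the start site, the red ones less often, and 1 summit beyond 2 kb is drawn in the last bin.

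Few of the members carried the AP-1 element under the Jun summit. TGACTCA was present on either strand within 50 bp of the summit at 120 of 1338 members, or 8.97% (7.55 to 10.6%). This was above the 1.57% (1.16 to 2.11%) of equally long windows placed 2 kb upstream and downstream of the summit. It was far below distal regions, more than 1 kb from any annotated start site, that were bound by all 3 proteins only in A549. There the element lay under the Jun summit of 442 of 939 regions, or 47.1% (43.9 to 50.3%), a difference of -38.10 points (-41.60 to -34.52). The rules for these sets were unlike. In a distal region the peaks of all 3 proteins had to join into a single stretch by overlap. At a member each peak needed only to lie within 1 kb of the start site. The strength of the distal peaks was not set beside that of the members. At JunB summits the shares were 9.94% for members and 48.3% for distal regions.

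Common promoters that resemble the members in lacking a B2B peak, but with JunB and Jun and no JunD in A549, carried the AP-1 element more often. Their share was 14.3% of 1037, and members were lower by 5.30 points (difference -5.30, -7.97 to -2.71). Of the 19 common promoters bound by all 3 proteins in both lines, 13 carried it. The strength of the peak went with the element among the members. It was found at 84 of the 333 members with the highest summed fold enrichment, 27.04 to 121, and at 5 of the 335 with the lowest, 10.7 to 17.4. The median sum was 35.4 for members with the element and 20.2 for members without it.

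The CRE was as frequent as the AP-1 element at the Jun summits of members, at 118 of 1338 or 8.82% (7.42 to 10.5%). Distal regions had it at 7 of 939, or 0.75%, a difference of 8.07 points (6.47 to 9.76). Promoters with JunB and Jun but no JunD had it at 68 of 1037, or 6.56%, and members exceeded them by 2.26 points (0.08 to 4.39). Of the 19 common promoters with all 3 proteins in both lines, 2 had it. Windows 2 kb away were not searched for the CRE. GALNT11 and ESYT2, printed above, carry it, as do MYH10, a non-muscle myosin, ATP5ME, a subunit of ATP synthase, and HNRNPU, a nuclear RNA-binding protein. Neither element contains the other, so a window counts for both only where it holds both.

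**Figure D2:**
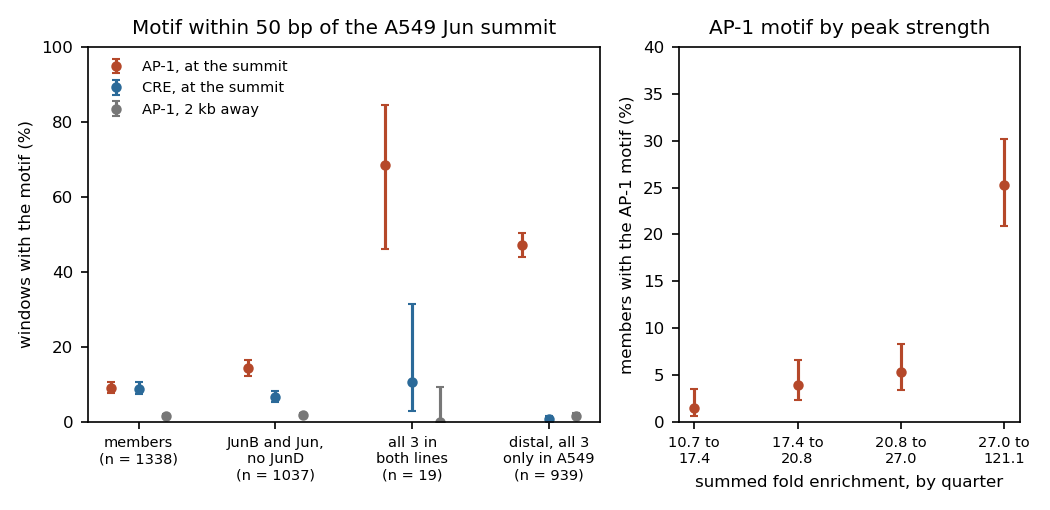
Left, percent of windows with the AP-1 element or the CRE within 50 bp of the A549 Jun summit, and with the AP-1 element 2 kb away, in members and 3 comparison sets, with 95% Wilson intervals. Right, percent of members with the AP-1 element in 4 groups of near equal size by summed fold enrichment; the share is highest, 25.2%, in the strongest group and 1.49% in the weakest.

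Other promoter elements were counted on either strand from 250 bp before to 50 bp after the start site, without use of the peaks. The AP-1 element was present in this window of 300 bp at 3.06% of members, close to the 2.43% of all common promoters. The CRE was present at 6.88% of members and 3.38% of all common promoters, and members exceeded the other common promoters by 3.95 points (2.66 to 5.46). The GC box GGGCGG, a site of SP and KLF factors, was present at 77.4% of members, 8.27 points (5.79 to 10.6) above the others. The CCAAT box was lower by 3.75 points (difference -3.75, -6.40 to -1.01). For the ETS element CCGGAA, the E-box CACGTG, the YY1 element AAGATGGC, TATAAA and the NRF1 motif, the interval of the difference included 0. Shares over all common promoters were 70.03% for the GC box, 36.7% for CCAAT, 29.6% for ETS, 9.99% for the E-box, 4.93% for YY1, 5.64% for TATAAA and 2.36% for NRF1. Median GC content in the window was 67.7% in members and 64.7% in all common promoters, and the ratio of observed to expected CpG was 0.89 and 0.84.

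To ask whether promoters with the Jun family only in A549 also differed in the transcription machinery, peaks of pol II, H3K27ac and Med1 were counted at the 855 members on chromosomes 1 to 12, the chromosomes that every list covers. None of these lists was used to choose the members. Pol II is the polymerase that transcribes protein-coding genes, H3K27ac is an acetylation mark of active promoters and enhancers, and Med1 is a Mediator subunit that joins factors at enhancers to the polymerase. Among all common promoters of these chromosomes, pol II was called at 95.9% in A549 and 77.4% in B2B, H3K27ac at 98.0% and 94.6%, and Med1 at 79.9% and 90.4%.

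Pol II was called at all 855 members in A549 (100%, 99.6 to 100%) and at 779 in B2B (91.1%, 89.0 to 92.8%). The difference between lines was 8.89 points (7.104 to 11.0, paired over genes). At the other common promoters that difference was larger, 19.8 points (18.8 to 20.8), and at the 3515 without a Jun-family peak in either line it was 26.4 points (24.8 to 27.9). The gap between lines was smaller at members than at other common promoters, by 10.9 points (difference of differences -10.90, -12.96 to -8.58). Because every member had a pol II peak in A549, the gap at members was set by the B2B share alone. It cannot show whether pol II was stronger in A549. The small gap was not particular to members. At promoters with the Jun family in both lines it was smaller still, 5.04 points (3.32 to 6.99), and members exceeded it by 3.85 points (1.20 to 6.56). At promoters with JunB and Jun but no JunD it was 15.2 points (12.7 to 18.1).

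H3K27ac was near complete in both lines, at 99.9% of members in A549 and 98.8% in B2B, a difference of 1.05 points (0.35 to 2.01). The interval of this difference included 0 under 4 alternatives, where it was 0.24 to 1.32 points. Other common promoters differed by 3.68 points between the lines. Med1 was called at 99.4% of members in A549 and 99.1% in B2B, and the difference of 0.35 points (-0.56 to 1.31) included 0. Both Med1 shares were near complete, which left little room for a difference.

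At common promoters without a Jun-family peak, Med1 was called less often in A549 than in B2B, at 64.0% against 84.2%. The difference between lines there was -20.17 points (-21.76 to -18.57). It departed from that at members by 20.5 points (18.7 to 22.4). Against promoters with JunB and Jun but no JunD, where Med1 was called at 95.8% in A549 and 95.5% in B2B, the difference of differences was 0.06 points (-2.03 to 2.17).

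Pol II, H3K27ac and Med1 were all called in both lines at 772 of 855 members. At 76 of the 855 pol II was called in A549 and not in B2B, a smaller share than 1438 of all 7454 common promoters. GPAT3, SHTN1 and PERP headed these 76 members by summed fold enrichment and were singled out after their values were seen. At 3 members pol II, H3K27ac and Med1 were all called in A549 and none of them in B2B. The 772 and the 3 have no count over all common promoters beside them. The 3 included GPAT3 and MAP2, which encodes a microtubule-associated protein of neurons. GPAT3 had A549 fold enrichments of 73.1 for pol II, 89.8 for H3K27ac and 19.6 for Med1. MAP2 had 62.1, 23.5 and 11.2.

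The strongest members with all 3 in both lines were SLC25A28, GALNT11, ZNF362, FOSL1 and SESN2. FOSL1 had Med1 fold enrichments of 35.9 in A549 and 19.9 in B2B, and SESN2 had 17.5 and 9.13. Fold enrichments cannot be compared between the lines, because the lists differed in scale. At members with a peak, pol II had a median fold enrichment of 75.4 in A549 and 4.60 in B2B, and H3K4me3 had 40.2 and 3.39. The part of this difference in scale in the choice of members was not tested.

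Strength was therefore expressed as the percentile of a peak in its own list, to be read beside all common promoters of the same line. A percentile depends on which peaks its list holds, so it does not compare the lines either. The pol II lists held 45938 peaks in A549 and 25234 in B2B. Pol II peaks at members lay at a median percentile of 95.8 in A549, against 88.8 over all common promoters, and at 45.1 in B2B, against 43.4. Med1 peaks at members lay at 90.9 in A549 and 87.6 in B2B, against 71.7 and 73.7 over all common promoters. For H3K27ac the values at members were 93.8 and 73.0, against 86.0 and 68.6. H3K4me3, which was used to choose the members, lay at 88.4 in A549 and 49.4 in B2B, against 81.9 and 52.9. Its A549 peaks at members had a median width of 2881 bp, against 2304 bp over all common promoters, and the B2B widths were 994 and 983 bp.

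**Figure D3:**
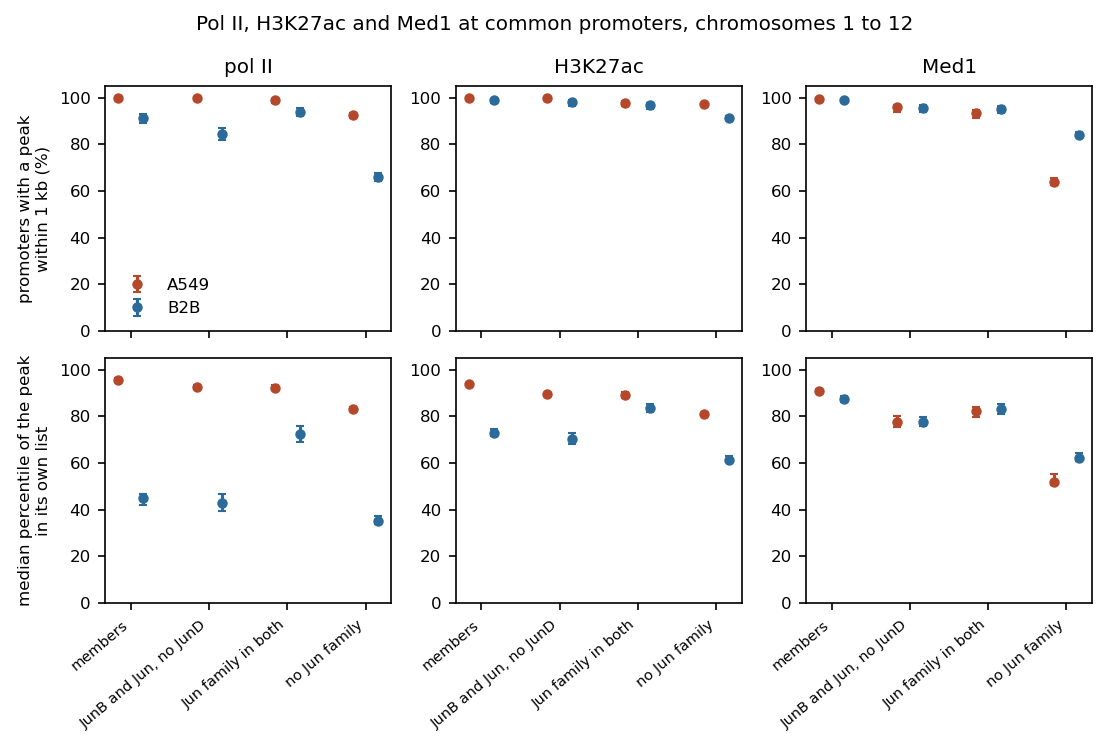
Top, percent of common promoters on chromosomes 1 to 12 with a pol II, H3K27ac or Med1 peak within 1 kb, in A549 (red) and B2B (blue), for members, promoters with JunB and Jun but no JunD, promoters with the Jun family in both lines, and promoters without it, with 95% Wilson intervals. Bottom, median percentile of those peaks in their own list with 95% order-statistic intervals. Members lie at 95.8 for pol II in A549 and at 45.1 in B2B, values that depend on each list and do not compare the lines.

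CTCF and the cohesin subunit Rad21, proteins of insulators and chromatin loops, were analysed in B2B on all chromosomes. In B2B a CTCF peak lay within 1 kb of 587 members, or 43.9% (41.2 to 46.5%), beside 39.0% of all common promoters. This was 11.7 points (8.79 to 14.6) above promoters without a Jun-family peak. It was 12.3 points below promoters with the Jun family in both lines (difference -12.28, -16.20 to -8.32). Rad21 lay at 1301 members, or 97.2% (96.2 to 97.99%), beside 88.9% of all common promoters. That was 10.6 points (9.28 to 11.8) above promoters without a Jun-family peak and 13.6 points (11.3 to 15.995) above promoters with the family in both lines. Against promoters with JunB and Jun but no JunD, the CTCF difference of 3.56 points (-0.44 to 7.54) included 0 and the Rad21 difference was 3.41 points (1.74 to 5.20).

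To describe which genes the members are, they were counted in 27 gene lists. The lists were filled by patterns in gene symbols, so a list can hold genes related to its title by name only. The share of members among the common promoters of a list is read beside the 11.5% over all common promoters, and no list was tested. Genes of bZIP subunits, the family of AP-1 itself, counted 11 members of 37 (29.7%, 17.5 to 45.8%), with a median summed fold enrichment of 25.5. They were FOSL1, FOS and FOSB of the Fos family, the C/EBP proteins CEBPB and CEBPG, ATF1, CREB1 and CREM, the antioxidant regulator NFE2L2 (NRF2), and BACH1 and MAFK, proteins that bind or compete at NRF2 sites. CEBPG had 53.5 in the Jun list, 6.86 in the JunB list and 6.83 in the JunD list. The share of this list rested on the B2B rule. It was 13.5%, beside 10.1% of all common promoters, when B2B Jun-family peaks were excluded within 3 kb, where FOSL1 was no longer a member, and 16.2% when they were excluded at every start site of a gene.

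Target genes of NRF2, the regulator of the antioxidant response, had the highest share, 8 of 22 (36.4%, 19.7 to 57.0%). ABCC3, an export pump for organic anions, had 27.9 in the JunB list, 18.1 in the Jun list and 6.71 in the JunD list. GCLM, a subunit of the enzyme that limits glutathione synthesis, had 18.1, 21.9 and 7.52. NQO1, GSR, ME1, PGD, FTH1 and AKR1C3 were the others. The share of this list was 23.8%, beside 8.50% of all common promoters, with a −log10 q of at least 5 in all lists, where ABCC3 was no longer a member. KEAP1, the inhibitor of NRF2, was itself a member, with 9.93, 23.1 and 8.29.

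ETS, KLF and SP factors had 9 members of 33 (27.3%), among them ELF4 with 30.5 for JunB, and KLF10 with 40.2 for Jun. Ubiquitin-conjugating enzymes had 9 of 33 as well, with UBE2D2 and UBE2V2 the strongest, and 15.2% with that q-value limit. RNA polymerase II subunits and general transcription factors had 13 of 65. Among them GTF2IRD2 and GTF2IRD2B, and POLR2J with its copies POLR2J2 and POLR2J3, are near-identical genes whose reads can be split. The symbol POLR2J3 was counted under separate gene records within the 13. The share of this list was 10.8% with the B2B exclusion at 3 kb. TAF10, a subunit of TFIID, led this list with 18.7 for Jun.

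The lists of this paragraph had shares from 16.4% to 19.4%. These lie above the 11.5% of all common promoters, and their intervals included 11.5%. Translation factors had 13 of 70, led by EIF3J with 18.4, 27.6 and 9.51 and by the release factor ETF1. Spliceosome and SR proteins had 14 of 82, led by HNRNPU and HNRNPDL, and chromatin regulators had 18 of 109, led by the acetyltransferase CREBBP with 38.3 for Jun and the demethylase KDM3A. The MAP kinase cascade had 12 of 73, among them MAP2K1 and MAPK8, which encodes JNK1. Cholesterol and fatty acid genes had 6 of 31, with SREBF1 and INSIG1, and p53 response genes had 4 of 22, with SESN2 and XPC.

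Proteasome subunits had 7 of 46 with PSME4 and PSMD11, chaperones 13 of 84 with HSPE1, DNA replication proteins 8 of 50 with RRM2 and MCM10, and nuclear transport proteins 8 of 51 with RANBP2 and RAN. Rab and vesicle coat genes had 22 of 133 with AP1G1 and SEC24A. Cyclins and their kinases had 6 of 50 with CCNH and CDK17. Actin and adhesion genes had 7 of 62, and their members ITGB1, an integrin subunit, and MYH10 were strong, with 42.9 and 39.9 for Jun. The share was 5.45% with the 5′ end of the gene record only, where ITGB1 was no longer a member.

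The lowest shares were found for 0 of 33 Mediator subunits (0 to 10.4%), 6 of 77 mitochondrial ribosomal proteins with MRPS14 and MRPL4, 4 of 50 DDX and DHX helicases with DDX18 and DDX5, and 31 of 373 zinc finger genes with the prefix ZNF (8.31%, 5.92 to 11.6%). Cytosolic ribosomal proteins had 8 of 85 with RPS20 and RPL8, and mitotic, kinetochore and kinesin genes 8 of 82 with KIF21A and ANAPC2. DNA repair proteins had 7 of 67 with ERCC1. Respiratory chain subunits and assembly factors had 10 of 95 with ATP5ME and UQCRFS1, and aminoacyl-tRNA synthetases 4 of 37 with NARS1 and IARS2. With a −log10 q of at least 5 the share of mitochondrial ribosomal proteins fell from 7.79% to 2.60% and that of cytosolic ones from 9.41% to 4.71%, and MRPL4 and RPL8 were no longer members.

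**Figure D4:**
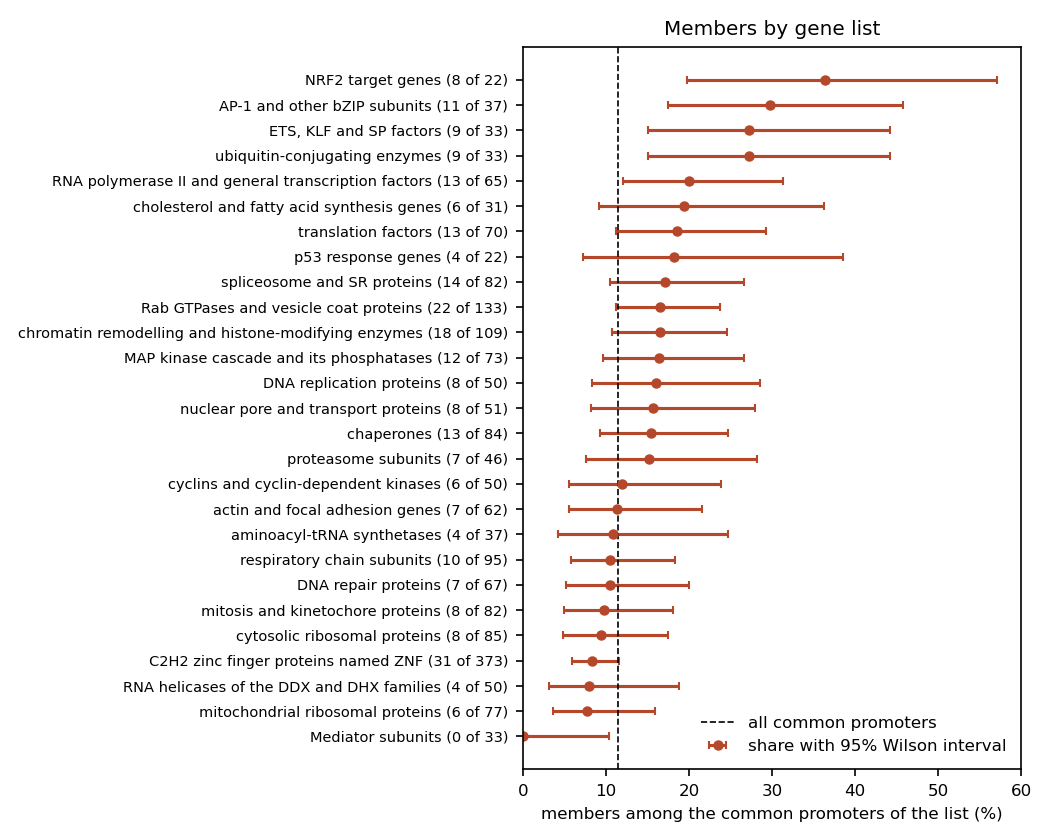
Members as a percent of the common promoters of each of 27 gene lists, with counts in the labels, 95% Wilson intervals and a dashed line at the 11.5% of all common promoters. NRF2 target genes have the highest share, at 36.4%, and Mediator subunits have no member.

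The study centres on oncogenes, so the members were set beside its oncogene list, which the paper merged from COSMIC and OncoKB. Oncogene here means a gene on that list, whatever its role in tumours. Of the 479 oncogenes with a common promoter, 4.11% of all common promoters, 73 were members. Oncogenes made up 5.46% of members (4.36 to 6.81%) and 3.94% of the other common promoters, a difference of 1.52 points (0.35 to 2.91). This difference fell to 0.76 points (-0.38 to 2.16), with an interval that included 0, when a gene also had to lack a B2B Jun-family peak at all its other start sites. The share was not particular to members. It was 5.75% (4.53 to 7.28%) at promoters with the Jun family in both lines, and 3.86% (2.85 to 5.21%) at promoters with JunB and Jun but no JunD. The strongest oncogene members were CREBBP, ELF4, EZR, KEAP1, TCF12 and EWSR1. EZR, a linker of membrane and actin, had 25.6 for JunB and 21.7 for Jun, and a B2B Jun-family peak lay 1012 bp from its start site.

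Of the genes that the study describes by name, SDHAF2 and FGFR1 were members, with A549 Jun fold enrichments of 7.74 and 8.06, ranks 1103 and 930 of 1338 by summed fold enrichment. SDHAF2 is an assembly factor of succinate dehydrogenase and FGFR1 a growth factor receptor. HSP90AB1 and KLF6 carried all 3 proteins in A549 but also a Jun peak in B2B. SRC had only JunB and CCNE1 only JunB and JunD in A549. Each of these genes was scored at a single start site, with a limit of 1 kb. At that site EGFR lacked peaks of JunB, Jun and JunD in A549 and in B2B. POU5F1 lacked H3K4me3 at its site in both lines. The paper places AP-1 at distal enhancers of POU5F1, EGFR and SRC, and peaks at those enhancers were not examined here.

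The members were unevenly spread over the chromosomes. Among autosomes they made up between 3.16% of common promoters on chromosome 6 (21 of 664) and 21.8% on chromosome 8 (89 of 408). Chromosome 2 had 21.5% (168 of 782), chromosome 15 had 19.8% and chromosome 10 had 19.4%. Chromosomes 18, 22 and 9 had 3.75%, 5.24% and 5.26%. The A549 Jun-family lists also varied between chromosomes. JunD lay at 9.26% of common promoters on chromosome 9 and at 35.4% on chromosome 20, and JunB at 17.2% on chromosome 22 and 50.5% on chromosome 2. Jun varied less, from 27.7% to 49.5%. JunD in A549 lay at 35.05% of common promoters on chromosome 8 and at 10.8% on chromosome 6. In B2B, Jun lay at 2.80% of common promoters on chromosome 21 and 17.5% on chromosome 6. These shares are part of the rule, and no test was made of them.

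**Figure D5:**
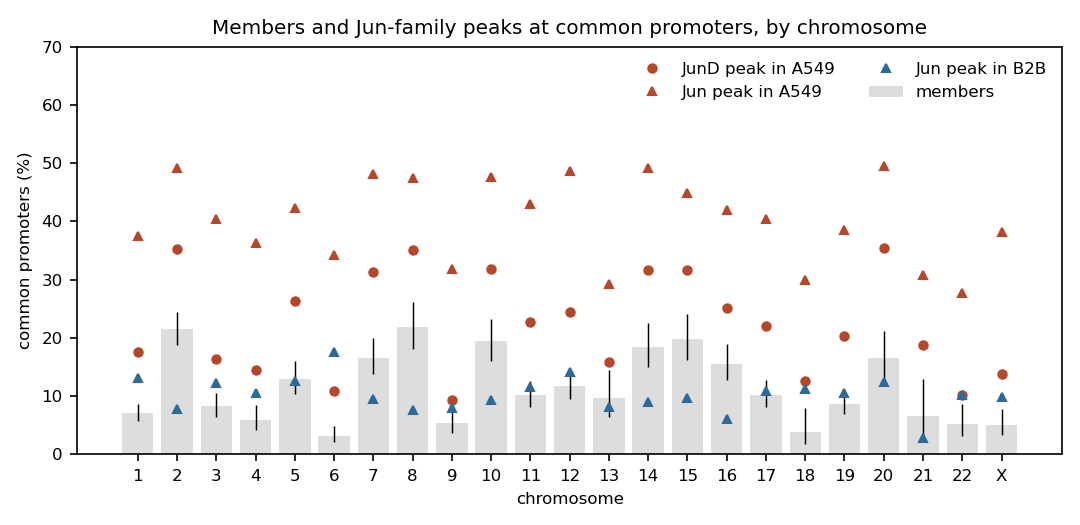
Members as a percent of common promoters on each autosome and chromosome X (grey bars, 95% Wilson intervals), with the percent that had a Jun or JunD peak in A549 (red) or a Jun peak in B2B (blue). Of the chromosomes drawn, the bars are highest on 8 and 2, at 21.8% and 21.5%, and lowest on 6, at 3.16%; chromosome Y, with 8 common promoters and no member, is not drawn.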

How the data were processed

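ChIP-seq peak lists of A549 and B2B cells were taken as deposited. Per the methods of the study and the submitters' processing notes, reads were aligned to hg38 with Bowtie2 2.4.4, duplicates were removed, replicates were merged, read depth was scaled with SAMtools 1.13 and peaks were called with MACS2 2.2.7.1. The authors deposited a fold enrichment (a ratio), a −log10 p-value, a −log10 q-value and a summit offset for each peak. Peak caller options are not given in the sources used here. A549 H3K27ac, pol II and Med1, and B2B Med1, hold no peaks past one position, and A549 CTCF and Rad21 were not analysed here.

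Genes and start sites came from GENCODE release 44, and no peak reached past its chromosome in the reference. A gene was classified at one start site, and other targets were scored within 1 kb of it. The comparison "paired over genes" used Newcombe's method for paired shares, other differences used Newcombe's method for independent shares, and differences of differences combined them. The functions were tested on simulated data in Python 3.11.15 with NumPy 2.4.6 and SciPy 1.17.1, and figures were made with Matplotlib 3.10.9. The oncogene list supplied with the paper held 618 symbols, more than the number of oncogenes stated in the paper's text. Of these symbols, 605 matched directly, 6 through an older symbol and 7 not at all.

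Members, gene lists and tests were chosen with earlier results of these data known. Named genes are the 10 members with the highest summed fold enrichment, 2 per gene list with at least 4 members, 6 oncogenes, the strongest with pol II, H3K27ac and Med1 in A549 only or in both lines, the 3 weakest, those nearest the limit, and genes the study describes; other members of a list are named without values. Alternatives changed the q-value, list length, distance, start site, summits and sharing of peaks. Some genes that these rules name are not reported here.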

Additional observations from a re-analysis of the deposited data

How the results depend on the processing

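No paired analysis was possible because the replicates were merged before peaks were called. With Jun-family lists of equal length the number of members moved to 250. Under 9 other alternatives it lay between 971 and 1336, and between 72.1% and 96.0% of the 1338 members were kept. The H3K27ac difference between lines at members lost its call, at 0.49 points with a −log10 q of at least 5 in all lists, 0.81 with that limit for A549 Jun-family peaks, 1.32 with lists of equal length and 0.24 with summits in place of peaks. It reversed to -34.38 points on all chromosomes, because the A549 list ends early. Its difference from other common promoters lost its call at -2.10 points with lists of equal length. The oncogene difference lost its call at 1.52 points with lists of equal length, 1.16 with the 5′ end of the gene record only and 0.76 with no B2B peak at any start site. Of the 27 gene list shares, 26 moved by over 1.5 times with lists of equal length, where 2.15% of all common promoters were members, 6 with a −log10 q of at least 5 in all lists, 5 with that limit for A549 Jun-family peaks, 3 with the B2B exclusion at 3 kb, and 1 each with the 5′ end only, with no B2B peak at any start site and with each Jun peak counted once. The causes were not tested except where stated. Differences for pol II, Med1, CTCF, Rad21 and the AP-1 element kept their direction and their call under every alternative run.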
